A study of Mus musculus with 3 samples.

Results

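The mouse mitochondrial chromosome carries 37 genes, namely 13 mRNAs, 2 rRNAs and 22 tRNAs, and these were followed in RNA recovered with the m6A reader YTHDF2. They were chosen as every gene of the deposited table that lies on chrM alone, 37 of 49997 genes, and sorted into classes by symbol and by length. Of these genes, 28 are annotated on the plus strand of chrM and 9 on the minus strand, the latter being ND6 and 8 tRNAs. Only 16 of the 37 had any count, namely the 13 mRNAs, both rRNAs and the proline tRNA TrnP, while the other 21 tRNAs were at 0 in every library.

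The libraries came from an RNA immunoprecipitation sequencing (RIP-seq) experiment, in which transcripts bound by a protein are pulled down with an antibody and sequenced beside the RNA put in. The cells were E14 mouse embryonic stem cells (ESCs), grown with leukemia inhibitory factor on gelatin. As the study describes them, they carried a Dux transgene switched on by doxycycline (Dox) and a tdTomato reporter driven by the Mervl promoter. All 3 libraries followed 24 h of Dox, so that input and IP shared genotype, treatment and time. There was 1 input library and 2 anti-YTHDF2 IP libraries, and nothing in the labels says whether the IP libraries came from separate cultures.

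Total counts were similar, from 35259827 to 36986994 per library. All 6 ESC markers listed, Pou5f1, Nanog, Sox2, Esrrb, Zfp42 and Klf4, were detected and together made up 5290 CPM (counts scaled to the library total) in the input, with IP over input log2 values from −0.56 for Nanog to 0.83 for Sox2. The 6 fibroblast markers together made up 39.1 CPM, with Col3a1 at 0, and the 4 that could be tested ran from −0.97 for Thy1 to 1.41 for Pdgfrb, the latter called higher in IP. Dux-induced cells were not separated from the others, and fewer cells of a kind cannot be told apart from less RNA per cell in such bulk libraries.

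As background, mitochondria keep a small circular genome of their own, which is transcribed from both strands into long RNAs that run through many genes. The tRNAs lie between most of the mRNAs and rRNAs, and their excision frees the neighbouring transcripts, which stay in the mitochondrial matrix and are translated there by mitochondrial ribosomes. All the proteins made are membrane subunits of the respiratory chain and ATP synthase, whose remaining subunits are encoded in the nucleus, translated in the cytosol and imported. YTHDF2 acts in the cytosol, where it binds m6A-modified mRNAs and brings in the CCR4-NOT deadenylase, and the question put to the mitochondrial transcripts is how much of them a YTHDF2 IP carries along.

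The gene order limits which of these RNAs can be counted from full-length reads. The table was made by leaving out each read that touched more than 1 gene, and the reads were 150 bases long. Sliding a window of 150 bases along chrM gave 0 windows that touched a single tRNA and no other gene for each of the 21 tRNAs at 0. TrnP alone among the tRNAs had such windows, 67 of them, which reach into the control region of 877 bases, where no gene is annotated. The windows followed the reference as a linear sequence, so TrnF at its first base, which borders the control region on the circle, had none. TrnP and its neighbour TrnT, the threonine tRNA, are shown because they have the same length of 67 bases and lie back to back, TrnP at chrM:15356-15422 on the minus strand and TrnT at chrM:15289-15355 on the plus strand, and yet TrnP alone received counts. Both are given 5′ to 3′ in the sense of the tRNA.
TrnP: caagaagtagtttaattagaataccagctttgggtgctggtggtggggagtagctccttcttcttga
TrnT: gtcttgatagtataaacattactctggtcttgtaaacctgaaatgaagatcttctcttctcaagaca

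Reading frames also overlap on chrM, and reads over such an overlap were counted for neither gene. The longest overlap, of 43 bases, joins the ATP synthase subunits ATP8 and ATP6, the next, of 14 bases, joins ND5 and ND6, which are transcribed from opposite strands, and the third, of 7 bases, joins ND4L and ND4. The stretches are shown to place these joints, on the plus strand of chrM, with 15 flanking bases on each side and the shared bases in capitals, at chrM:7912-7984, chrM:13537-13580 and chrM:10152-10188.
ATP8/ATP6: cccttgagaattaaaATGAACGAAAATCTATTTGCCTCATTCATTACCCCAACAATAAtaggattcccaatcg
ND5/ND6: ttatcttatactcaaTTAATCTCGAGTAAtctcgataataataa
ND4L/ND4: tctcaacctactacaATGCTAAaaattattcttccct

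A nuclear copy of the chromosome was the other limit. On chr1:24611535-24616184, a stretch of 4650 bases on the minus strand repeats chrM from 6394 to 11042 almost base for base, and over it the reference sequences are identical in runs of 3067, 367 and 1222 bases. Counting such stretches of at least 150 bases, 7 identical runs were found in the nuclear genome in all. All one-gene windows of COX2, ATP8, ATP6, COX3 and ND4L were identical to nuclear sequence, as were 98.5% of those of ND3, 58.9% of those of ND4 and 23.5% of those of COX1. For ND1, ND2, ND5, ND6, CYTB, both rRNAs and TrnP the share was 0%. A single base separates the first 2 runs, T9461C, where the chrM base comes first, then its position on chrM, and then the base of the chr1 copy. It is shown in capitals within 51 bases, chrM:9436-9486 on the plus strand and chr1:24613092-24613142 on the minus strand.
chrM: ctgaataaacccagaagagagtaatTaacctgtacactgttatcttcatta
chr1 copy: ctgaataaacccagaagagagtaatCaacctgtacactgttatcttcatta

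**Figure D1:**
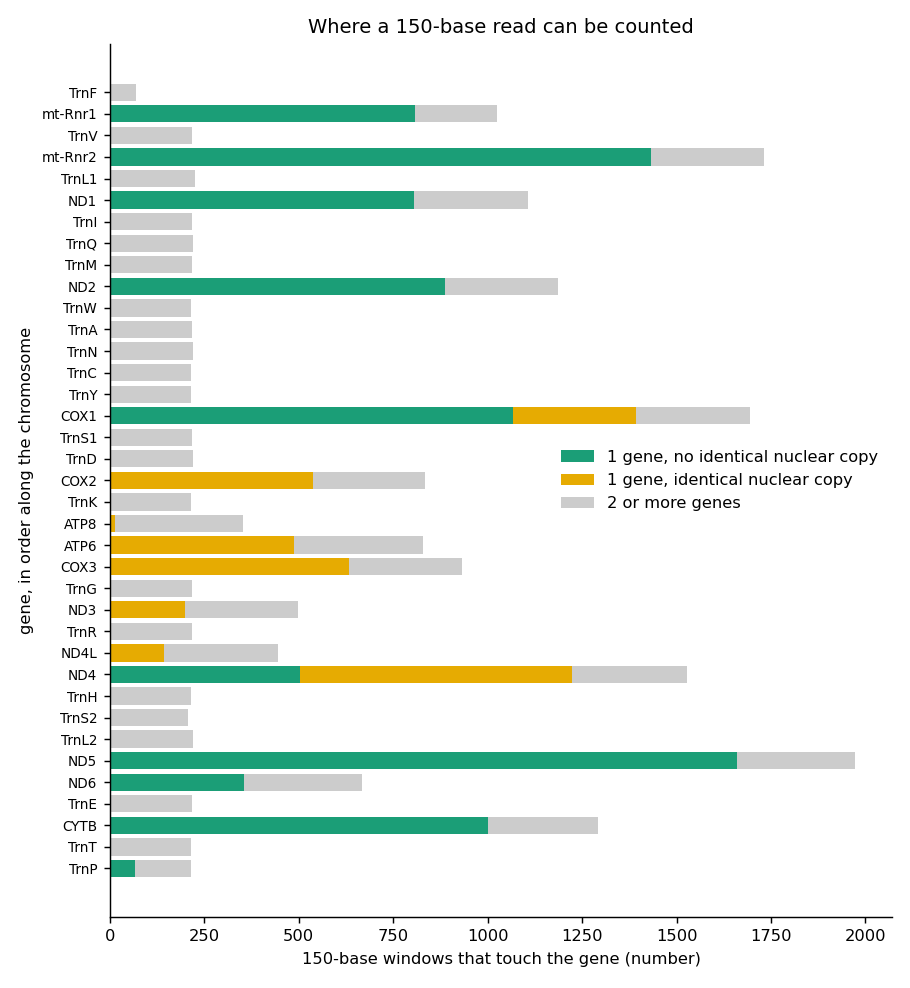
Number of 150-base windows that touch each mitochondrial gene (x axis), with the genes in order along chrM (y axis). Green windows touch 1 gene and have no identical nuclear copy, orange windows touch 1 gene and are identical to nuclear sequence, and grey windows touch 2 or more genes. TrnP is the only tRNA with a coloured bar, and COX2, ATP8, ATP6, COX3 and ND4L have no green bar.

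As a class, the mitochondrial mRNAs were depleted from the YTHDF2 IP. The 13 mRNAs summed to 604177 counts in the input and to 12386 and 12795 counts in IP replicates 1 and 2, and these made up 97.8% of all counts on chrM in the input. After scaling of the libraries, 2.01% and 2.04% of the input level was left in the IP libraries, a fold of 49.8 and 48.9. The whole chromosome took 1.67% of all counts in the input (95% Wilson interval 1.666 to 1.674), 0.0362% in IP replicate 1 (0.0356 to 0.0368) and 0.0365% in IP replicate 2 (0.0359 to 0.0371). Such intervals cover counting error only, and they are too narrow because the mates of a pair were taken as separate counts.

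IP was compared with input gene by gene with the quasi-likelihood F test of edgeR over 19601 genes that passed a filter on low counts, and a gene was called at a Benjamini-Hochberg adjusted p under 0.05 and a fold over 2. All 13 mRNAs, both rRNAs and TrnP passed the filter, and all 16 were called lower in IP, where 13.0% of all genes tested were called lower and 15.0% higher. With 1 input library, a gene could pass the filter through the input alone. ATP6, ATP8, ND3, ND4L and TrnP, with 9 or fewer counts in each IP library, passed in that way, so a call for them could only be lower. The 13 mRNAs had a median log2 fold change of −5.97, a fold of 62.6, against 0.01 over all genes tested. The median was −5.68 with the mRNAs at 0 in IP set at a floor of 3 counts, and −5.70 over the 8 mRNAs with over 1000 input counts. The input was 1 library, so the spread behind each p comes from the 2 IP libraries alone, which may be technical. The fit pools that spread over all genes tested, so a p does not rest on the gene's own spread alone. The methods describe an IP from cleared lysate and the labels one from extracted RNA. These may differ in whether mitochondrial RNA was in reach of the antibody, and the part of this step in the depletion was not tested.

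**Figure D2:**
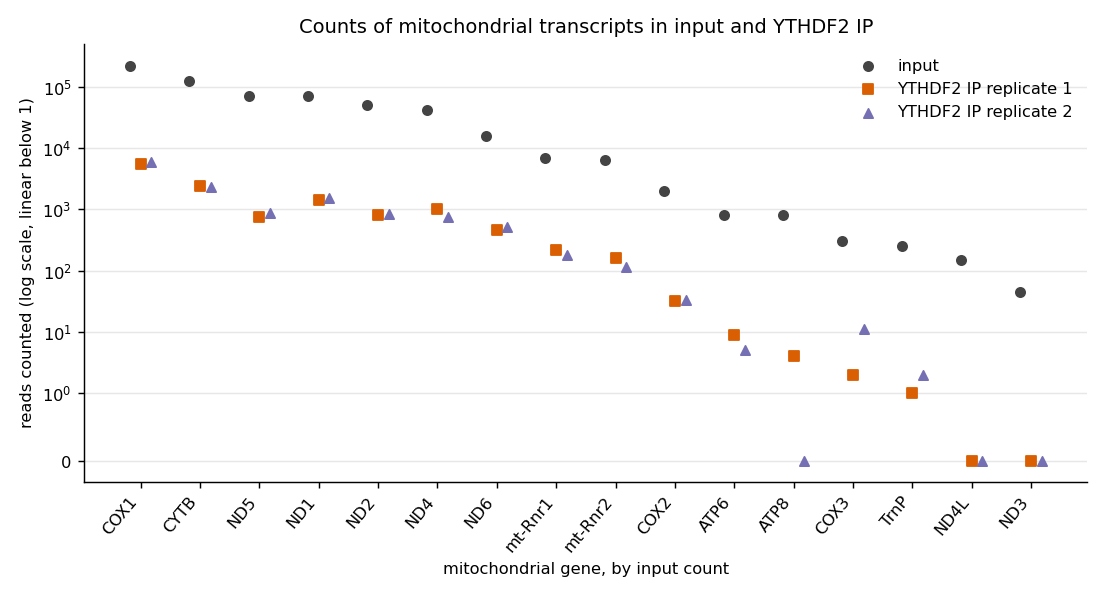
Reads counted (y axis, log scale and linear below 1) for the 16 mitochondrial genes with counts (x axis, ordered by input count) in the input (circles), IP replicate 1 (squares) and IP replicate 2 (triangles). Each IP point lies below the input point of its gene, from 222542 against 5520 and 5882 for COX1 to 45 against 0 and 0 for ND3.

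Complex I, the NADH dehydrogenase that feeds electrons into the chain, takes 7 of its subunits from chrM. ND5, one of the proton-pumping subunits of its membrane arm, had 71886 input counts against 752 and 876 in IP. This came to −6.50 ± 0.0615 (SE) as a log2 fold change, at an edgeR adjusted p of 1.91e-38. The other large antiporter-like subunits are ND2 and ND4. ND2 had 50914 input counts against 799 and 842 in IP, a log2 fold change of −6.00 ± 0.0578, and ND4 had 42271 input counts against 1022 and 765 in IP, a log2 fold change of −5.60 ± 0.250. The IP libraries lay closer together for ND2 than for ND4, whose edgeR adjusted p was 0.0113. With edgeR's fit without the robust option, which was added after the values were seen, the adjusted p of ND4 was 5.89e-37 at the same fold change.

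ND1, which lies near the site where ubiquinone is bound, had 70055 input counts against 1417 and 1540 in IP, a log2 fold change of −5.61 ± 0.0549 with an edgeR adjusted p of 2.03e-41. ND6 is the one mRNA of the minus strand and had 15676 input counts against 453 and 521 in IP. Its log2 fold change of −5.05 ± 0.0717 was the smallest in size among the fitted values of the 13 mRNAs, with an edgeR adjusted p of 1.39e-35. When IP replicate 1 was left out, COX3 at −4.84 lay above ND6 at −4.96, and ND3 has no more than a bound. Strand was not used in the counting, so reads of ND6 and of RNA from the opposite strand cannot be told apart.

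The small subunits ND3 and ND4L were at the limit of the depth. ND4L had 151 input counts and 0 counts in both IP libraries, and ND3 had 45 input counts and 0 in both. With a floor of 3 deposited counts per IP library taken as a bound, ND4L came to 51.4-fold lower and ND3 to 15.3-fold lower. The exact Clopper-Pearson interval on halved counts is wider, and allows up to 2.42% of the input level of ND4L and up to 8.88% of that of ND3 in the IP libraries together. Their edgeR adjusted p was 2.38e-12 for ND4L and 2.23e-05 for ND3. Nearly all the one-gene windows of both genes have an identical nuclear copy, as described above.

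CYTB, cytochrome b, is the only subunit of complex III made in mitochondria. It had 126724 input counts against 2376 and 2320 in IP, a log2 fold change of −5.79 ± 0.0503 with an edgeR adjusted p of 2.35e-43. None of its 1000 one-gene windows has a nuclear copy, and the IP libraries left 1.84% and 1.77% of its input level.

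Complex IV, cytochrome c oxidase, has its catalytic core made from COX1, COX2 and COX3. COX1, which holds the heme and copper site where oxygen is reduced, was the most counted gene of the chromosome, with 222542 input counts against 5520 and 5882 in IP, a log2 fold change of −5.33 ± 0.0463 and an edgeR adjusted p of 3.19e-43. COX2, which takes electrons from cytochrome c, had 1985 input counts against 32 and 33 in IP, a log2 fold change of −5.97 ± 0.167 with an edgeR adjusted p of 4.33e-27. COX3 had 307 input counts against 2 and 11 in IP. Its log2 fold change was −5.58 ± 0.437 with an edgeR adjusted p of 3.88e-13, and it hung on single libraries, at −4.84 when IP replicate 1 was left out and at −7.20 when IP replicate 2 was. All one-gene windows of COX2 and COX3 are identical to nuclear sequence, and whether their counts came from chrM was not tested.

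ATP synthase takes ATP6 and ATP8 from chrM, the subunits of its membrane part, of which ATP6 forms the proton channel together with the ring of c subunits. ATP6 had 818 input counts against 9 and 5 in IP, a log2 fold change of −6.88 ± 0.289 with an edgeR adjusted p of 8.45e-22. ATP8 had 803 input counts against 4 and 0 in IP, a log2 fold change of −8.60 ± 0.373 with an edgeR adjusted p of 6.22e-20. With 4 counts in the IP libraries together, 0.242% of the input level of ATP8 was left, with an exact Clopper-Pearson interval of 0.0292% to 0.880%. The fitted log2 fold change of ATP8 was −7.63 when IP replicate 2 was left out and −12.67 when IP replicate 1 was, since the library that remained had 0 counts. All one-gene windows of ATP6 and ATP8 are identical to nuclear sequence too, and whether their counts came from chrM was not tested.

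The 2 rRNAs form the core of the mitochondrial ribosome. The small-subunit rRNA, mt-Rnr1, had 6941 input counts against 221 and 179 in IP, a log2 fold change of −5.16 ± 0.0963 with an edgeR adjusted p of 1.10e-31. The large-subunit rRNA, mt-Rnr2, had 6301 input counts against 161 and 115 in IP, a log2 fold change of −5.55 ± 0.111 with an edgeR adjusted p of 1.44e-26. In the joint fit each rRNA lay within the range of the mRNAs, while in IP replicate 1 alone mt-Rnr1 left 3.12% of its input level, above ND6 with 2.83%. The rRNAs held 2.14% of the chrM counts in the input, and whether rRNA was removed before library preparation is not given in the sources used here.

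TrnP, which carries proline to the ribosome, had 257 input counts against 1 and 2 in IP, a log2 fold change of −7.34 ± 0.524 with an edgeR adjusted p of 4.45e-15. Its share left in the IP libraries together was 0.568% (exact Clopper-Pearson interval 0.0911% to 2.80%). Every full-length read that could be counted for TrnP reaches into the control region, beyond the end of the processed tRNA. For the other 21 tRNAs no full-length read could be counted for 1 gene alone, so the count of 0 says nothing of their level. With windows of 100 bases, TrnN had 6 that touch no other gene and TrnC had 1. Whether shorter reads of these tRNAs were present was not tested. Among the nuclear genes of the table shorter than 100 bases, 1742 of 2029 (85.9%) were at 0 in all libraries too.

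Levels per position were compared over the windows that touch 1 gene and have no nuclear copy. In the input, COX1 stood highest with 209 counts per window, then CYTB with 127, ND1 with 86.9, ND4 with 84.0, ND2 with 57.4, ND6 with 44.0 and ND5 with 43.3, and well below these came mt-Rnr1 with 8.60, mt-Rnr2 with 4.40 and TrnP with 3.84. ND3 is left out of this order, since it has 3 such windows. With 1 input library the neighbours ND1 and ND4, and ND6 and ND5, have no replicate spread to be judged by. In IP, COX1 and CYTB kept the top places with 5.17 and 2.38 counts per window in replicate 1 and 5.51 and 2.32 in replicate 2. ND1 and ND4 changed places between the IP libraries, at 1.76 and 2.03 in replicate 1 and 1.91 and 1.52 in replicate 2. ND6 lay above ND2 in both IP libraries, with 1.27 against 0.901 and 1.46 against 0.949, while ND5 had 0.453 and 0.527.

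The mitochondrial transcripts did not all leave the same share of their input level in the IP. For the 10 genes with over 1000 input counts, this share was taken in each IP library with an exact Clopper-Pearson interval on halved counts, since each mate of a read pair was counted. These genes include COX2, all of whose one-gene windows are identical to nuclear sequence. ND5 left 1.03% (0.924 to 1.13) and 1.18% (1.07 to 1.29), while COX1 left 2.43% (2.34 to 2.52) and 2.55% (2.46 to 2.65). ND6 left 2.83% (2.46 to 3.23) and 3.21% (2.82 to 3.62). The intervals of ND5 lay apart from those of COX1 and ND6 in both IP libraries, and those of COX1 and ND6 lay apart in IP replicate 2 alone.

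Over the 8 mRNAs with over 1000 input counts, the log2 fold change ran from −6.50 to −5.05 with an SD of 0.445 between genes. The IP libraries differed from each other in the log2 ratio of a gene by a median of 0.08 and at most by 0.44, the latter for ND4. Within chrM, the share of counts on COX1 went from 36.0% in the input to 43.2% and 44.9% in IP, that of ND6 from 2.54% to 3.55% and 3.98%, and that of ND5 from 11.6% to 5.89% and 6.69%. ND4 left 2.37% (2.17 to 2.59) in IP replicate 1 and 1.75% (1.57 to 1.93) in IP replicate 2, intervals that lay apart. The rRNAs also left more in IP replicate 1, with 3.12% against 2.49% for mt-Rnr1 and 2.50% against 1.76% for mt-Rnr2, but with intervals that overlapped between the libraries. These genes share each library, so their values are not independent of each other.

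**Figure D3:**
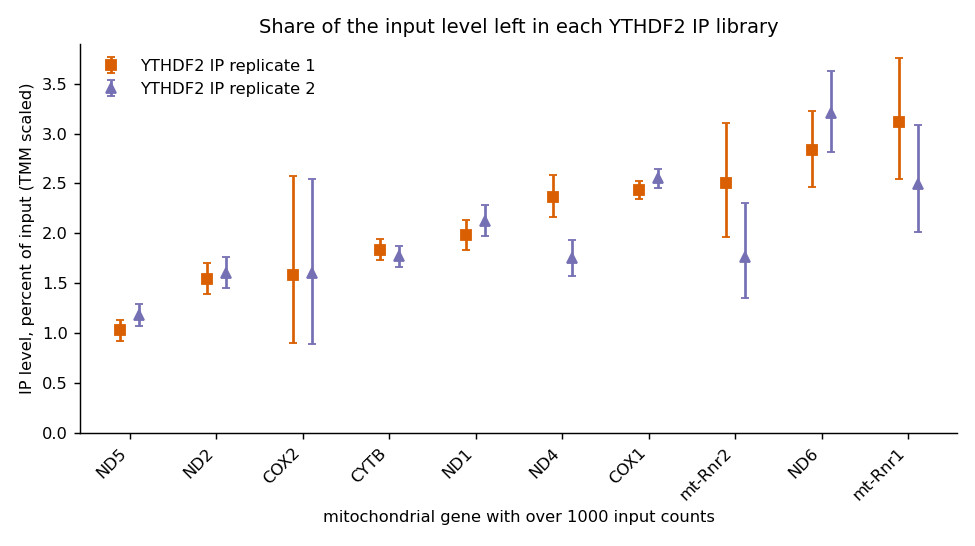
Share of the input level left in IP replicate 1 (squares) and IP replicate 2 (triangles), in percent after TMM scaling (y axis), for the 10 mitochondrial genes with over 1000 input counts (x axis). Bars are exact 95% Clopper-Pearson intervals on halved counts, and points run from 1.03% for ND5 in IP replicate 1 to 3.21% for ND6 in IP replicate 2.

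Against the whole transcriptome, the mitochondrial genes lay at the far end. Among the 9985 genes that averaged at least 10 CPM, 10 were mitochondrial, and these took 10 of the 11 lowest log2 fold changes. The one nuclear gene among them was Gm10925, and the next gene up was Usp22, a deubiquitinase of the SAGA complex, at −4.16 ± 0.123, with 2774 input counts against 167 and 152 in IP. Only 15 nuclear genes of that level lay below −3. The level is a mean over the 3 libraries, which a gene can reach through the input alone. COX2 did so with 53.7 CPM in the input against 0.908 and 0.920 in IP, as did both rRNAs. Among all genes tested, 70 nuclear genes lay below ND6, the highest of the fitted mitochondrial values, and all 70 were called lower.

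**Figure D4:**
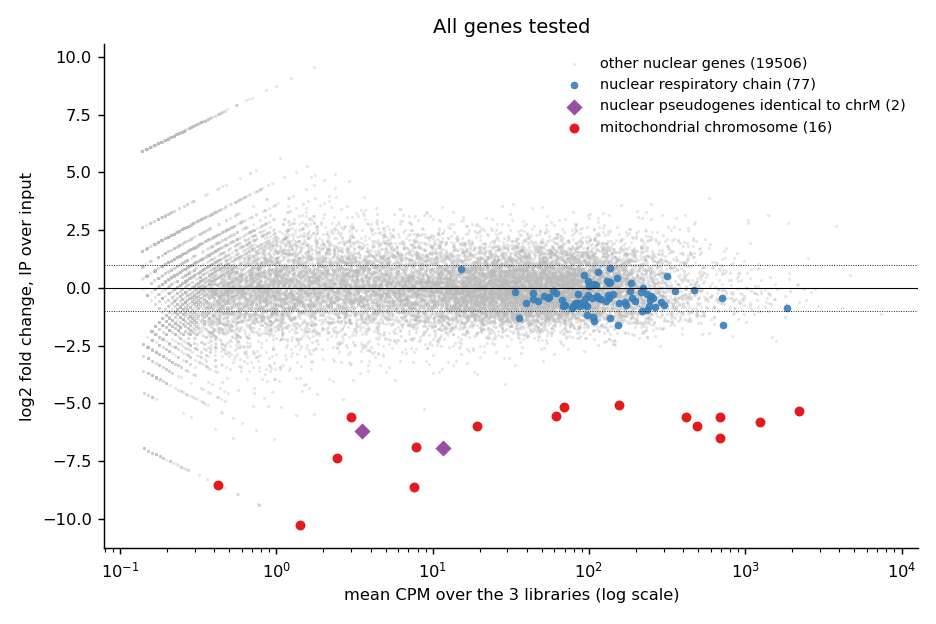
Log2 fold change of IP over input (y axis) against mean CPM over the 3 libraries (x axis, log scale) for the 19601 genes tested, with dotted lines at a fold of 2. The fitted values of the 16 mitochondrial genes (red) lie between −10.27 and −5.05, below the 77 nuclear genes of the respiratory chain and ATP synthase (blue, −1.59 to 0.86) and beside the 2 nuclear pseudogenes with mitochondrial sequence (purple diamonds). The red points of ND4L and ND3, at 0 in IP, are fitted values that depend on the prior count.

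Gm10925 and Gm10222 are annotated pseudogenes inside the chr1 copy. Gm10925, chr1:24613971-24614651, repeats ATP6 from its first to its last base over 681 bases, and Gm10222, chr1:24612404-24612700, repeats the whole of ND4L over 297 bases. Gm10925 had 1210 input counts against 8 and 12 in IP, a log2 fold change of −6.94 ± 0.236 with an edgeR adjusted p of 1.24e-24, and ATP6 was at −6.88. Gm10222 had 364 input counts against 6 and 4 in IP, a log2 fold change of −6.19 ± 0.395 with an edgeR adjusted p of 1.70e-16. The sequences being identical, whether a read came from chrM or from chr1 was not tested, and both pseudogenes had more input counts than the mitochondrial gene they repeat.

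The nuclear subunits of the same complexes gave the comparison within the pathway. None of the 77 nuclear genes tested reached the mitochondrial range. They had a median log2 fold change of −0.45 and ran from −1.59 to 0.86, with 7 called lower and 0 higher, while the 11 mitochondrial mRNAs with counts in IP lay at −5.05 or below and ND3 and ND4L at the bounds given above. The 7 called lower were Sdhc, Uqcrc2, Uqcrb, Ndufa4, Atp5a1, Atp5c1 and Atp5e, a share of the 77 that lies below the 13.0% of all genes, and 15.0% of all genes were called higher. When the dispersion was set at 0.1, 3 of the 77 were called lower, beside 7.81% of all genes.

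Complex I had 36 nuclear subunits tested and none called, beside 13.0% lower and 15.0% higher over all genes, with a median of −0.45. They ran from Ndufb5, an accessory subunit of the membrane arm, at −0.87 (3962 input counts against 2322 and 2148 in IP) to Ndufa2, an accessory subunit of the matrix arm, at 0.86 (3116 input counts against 5702 and 5892 in IP). Of the 7 mitochondrial subunits of that complex, ND3 and ND4L had the bounds given above, and the others lay at −5.05 or below.

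Complex II, succinate dehydrogenase, has no mitochondrially encoded subunit. The flavoprotein Sdha had 12279 input counts against 6221 and 6852 in IP, a log2 fold change of −0.95 ± 0.0587. The iron-sulfur subunit Sdhb was at −0.46 ± 0.0666 and the membrane anchor Sdhd at −0.31 ± 0.0648. The other anchor, Sdhc, with 6184 input counts against 2717 and 2581 in IP, fell by 1.26 on the log2 scale and was the one member of 4 called, beside 13.0% of all genes, with an edgeR adjusted p of 1.99e-18.

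In complex III, 2 of 9 nuclear subunits were called lower, beside 13.0% of all genes, with a median of −0.49. Uqcrb, which helps to bind ubiquinone, was lowest at −1.31 (8040 input counts against 3237 and 3452 in IP), and the small subunit Uqcr11 was highest at 0.68 (2889 input counts against 4551 and 4971 in IP). In complex IV, 1 of 11 was called lower, beside the same 13.0%, with a median of −0.42. This was Ndufa4, counted here with cytochrome c oxidase, with which it is associated, at −1.43 (6528 input counts against 2483 and 2484 in IP), and Cox8a was highest at 0.52 (8639 input counts against 12479 and 12912 in IP).

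For ATP synthase, 3 of 17 nuclear subunits were called lower, near the 13.0% of all genes, with a median of −0.67. Atp5a1, the alpha subunit of the catalytic head, was lowest at −1.59 with 46058 input counts against 15169 and 16368 in IP. Atp5d, the delta subunit, was highest at 0.19. Side by side, the ATP6 and ATP8 values were −6.88 and −8.60.

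**Figure D5:**
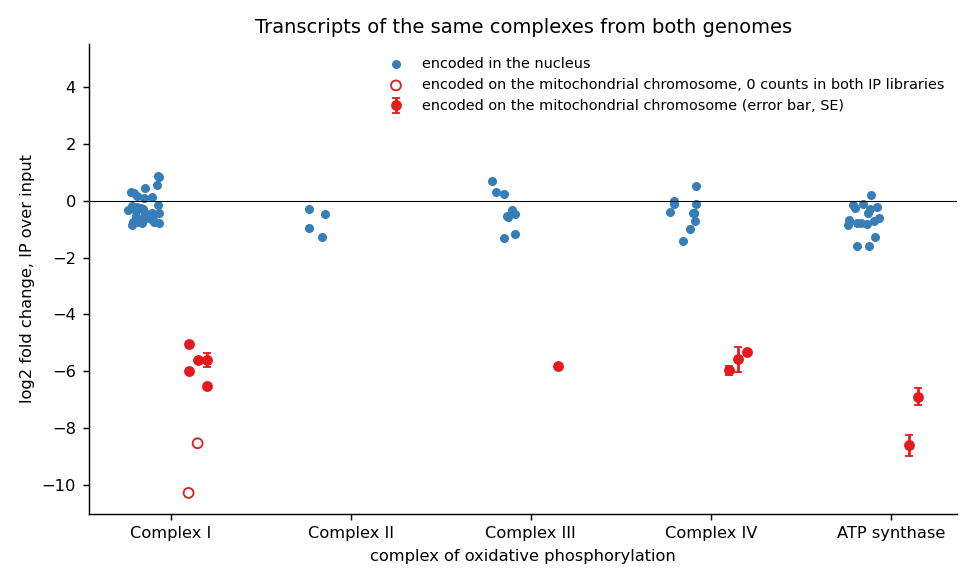
Log2 fold change of IP over input (y axis) for genes of each complex of oxidative phosphorylation (x axis), encoded in the nucleus (blue) or on chrM (red, with SE). Open red circles are ND4L and ND3, at 0 in both IP libraries, whose fitted values depend on the prior count. In each complex that has both kinds, every fitted red point lies below every blue point, and complex II has blue points alone, from −1.26 to −0.31.

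Nuclear genes for mitochondrial transcription and RNA processing, whose proteins make and handle the chrM transcripts, were spread around 0. Of 23 tested, 1 was called lower and 1 higher, beside 13.0% and 15.0% of all genes, with a median of −0.07. Lrpprc, whose protein stabilises mitochondrial mRNAs, was lower at −1.18 (1892 input counts against 857 and 865 in IP), and Tefm, a mitochondrial transcription elongation factor, was higher at 1.11 (685 input counts against 1522 and 1524 in IP).

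RNAs kept in the nucleus are another class outside the cytosol. Of 9 nuclear-retained noncoding RNAs tested out of 10 listed, 4 were called lower and 0 higher, beside 13.0% lower and 15.0% higher over all genes. Malat1, an abundant RNA of nuclear speckles, was lowest at −3.15 ± 0.0931, with 4373 input counts against 491 and 520 in IP, and Snhg11, Neat1 and Firre were at −1.64, −1.21 and −1.01. Of those not called, Mirg was highest at 0.57, with Kcnq1ot1 at 0.49, Rn7sk at 0.39, Rian at −0.12 and Meg3 at −0.67. The median of the list was −0.67. Each of these values lay above ND6 at −5.05.

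Base composition moved with the IP signal among nuclear genes, and chrM is AT-rich. The GC content of the 13 mRNAs ran from 31.9% to 41.1%, where the median of 15214 nuclear protein-coding genes tested was 50.3%. The 942 nuclear protein-coding genes within that range had a median log2 fold change of −0.72, and 312 of them (33.1%) were called lower and 45 higher, beside 13.0% lower and 15.0% higher over all genes. Of these, 598 averaged at least 10 CPM, the lowest of them at −3.33, above every mitochondrial mRNA. With the GC trend of nuclear genes removed, the median of the mitochondrial mRNAs was −5.22, and ND6 moved from −5.05 to −4.24. Over the 13 mRNAs the trend taken off ran from −0.81 to −0.57.

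The m6A mark is written in the nucleus mainly in a short sequence context whose core is often GGAC, and this motif was counted in the sense strand of the mRNAs. It occurred 16 times in the 11403 bases of the 13 mRNAs, or 1.40 times per kb, and 10 of the 13 held it. Of the 16 copies, 8 read GGACT, which contains GGAC, and the opposite strand held 19 copies of GGAC. Nuclear protein-coding transcripts, taken as their merged exons, held a median of 4.02 per kb (quartiles 2.99 and 5.25, 14396 genes), and 2.58% of them lay below 1.40. COX1 and ND5 held 1 copy each, where 99.7% and 99.8% of nuclear transcripts within 10% of their lengths held at least 1. ND6, ATP8 and ND3 held none, and for the length of ND6 85.4% of 103 nuclear transcripts held at least 1. COX3 held 3 copies, or 3.83 per kb, and ND4L held 2, or 6.73 per kb, above the upper quartile of nuclear transcripts. The 1.40 is pooled over the 13 mRNAs and set beside single nuclear genes, and no rate was taken over nuclear genes of like GC content. A match in the sequence is no measure of methylation, which was not measured here.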

How the data were processed

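RIP-seq libraries of Dox-treated E14 ESCs (1 input, 2 anti-YTHDF2 IP) were grouped by their titles. Per the methods IP was done on a lysate cleared without detergent, whereas the labels describe Trizol-extracted RNA used in the IP, and which was done is not settled here. No control-antibody IP was analysed here. The submitters' processing notes name fastp 0.19.4, HISAT2 2.2.1, DESeq2 1.40.2 and mm10.

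The authors deposited raw gene counts, for which the headers name featureCounts 2.0.3 and the exons in an mm10 RefSeq annotation. Each mate was counted alone and strand was not used. Reads over several genes or placed at several sites were left out by the defaults of that tool, which lowers the counts of tRNAs, of overlapping genes and of genes with nuclear copies. The table held 49997 genes and 0 columns of other samples.

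Counts were filtered with filterByExpr, which left 19601 genes, scaled by TMM (factors 0.957, 1.02 and 1.02) and tested in R 4.3.3 with edgeR 4.0.16 (robust quasi-likelihood F test, Benjamini-Hochberg adjustment over all genes tested), with 1 residual degree of freedom from the IP libraries and a common dispersion of 0.00538. Each SE was the size of the log2 fold change divided by the square root of its F statistic. Log2 ratios per library used a pseudocount of 0.5. The bound of a gene at 0 in IP used 3 counts per library. GC content, motifs, windows and nuclear copies were computed with Python 3.11.15 from RefSeq GRCm38.p6, the assembly of mm10, with 1-based coordinates. The nuclear copies were exact matches of at least 150 bases found from seeds of 32 bases. The GC trend was a loess curve (span 0.3) over nuclear genes.

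The members, the gene lists and the naming rule were chosen with earlier results of these data known. All chrM mRNAs and rRNAs, tRNAs by input count, complex II, the extremes of each other list at a mean of at least 10 CPM, and expressed nuclear genes holding chrM sequence were named. Usp22, the other genes called lower in these lists, the other nuclear-retained RNAs tested and the single genes compared by share were chosen after their values were seen. Alternatives were RLE factors, library totals, TMM from nuclear genes, no filter, a dispersion of 0.1, halved counts, DESeq2 1.42.0, a fit without the robust option, the GC trend removed, genes free of nuclear copies, and each IP library left out. P-values and counting intervals cover only the spread between the IP libraries and counting error.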

Additional observations from a re-analysis of the deposited data

How the results depend on the processing

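The counts of 13 mRNAs, 2 rRNAs and 1 tRNA called lower were the same under all 8 alternatives that give a test, in which 128 of 128 tests of a mitochondrial gene were still called. The median log2 fold change of the mRNAs, −5.97, was −5.87 with library totals and no TMM factor, which moved the median of all genes to 0.10, −5.22 with the GC trend of nuclear genes removed, and −5.79 over the 5 mRNAs with under 10% of windows identical to nuclear sequence. Leaving out one IP library gave −5.96 and −6.02. TrnP was at −7.86 when IP replicate 2 was left out and at −6.97 when IP replicate 1 was. With a fixed dispersion of 0.1, 3 of the nuclear respiratory chain genes were called lower in place of 7, and over all genes 1531 were called lower in place of 2543 and 1577 higher in place of 2936. The largest adjusted p over the alternatives was 0.0257 for ATP8 and 0.00171 for COX3, both with DESeq2, and 0.0151 for ND4. No paired analysis was possible because only 1 input library was available to set beside the IP libraries. With 1 input, the spread between inputs is unknown, and the counts give no more than a bound for ND3 and ND4L. Nearly all one-gene windows of ND3 and ND4L, and all of those of COX2, COX3, ATP6 and ATP8, have an identical nuclear copy. Under the counting rule, full-length reads leave no value for 21 tRNAs.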
